A study of Mus musculus with 13 samples.

Results

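Interferon-stimulated genes are a module of 36 mouse genes, given by symbol, whose transcripts are induced when cells sense interferon. The symbols were looked up in the gene annotation of the array, and 35 of the 36 had a row. Ifi44 had none and was not analysed here. The whole table held 19505 gene symbols. Each of the 35 had a single row, and 27 of them lay above the median signal of the array on at least 4 arrays and were tested among 10601 such genes.

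Type I interferons bind the receptor chains Ifnar1 and Ifnar2. The kinases Jak1 and Tyk2 then phosphorylate Stat2, which acts in a complex with Irf9 that binds the interferon-stimulated response element in the promoters of target genes. The products sense viral RNA, degrade it or block its translation, and Irf7 feeds back on the interferon genes themselves. In marrow these genes are also transcribed at rest in several blood cell types, and plasmacytoid dendritic cells are known for high levels of Irf7 and Bst2.

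The RNA came from whole bone marrow of C57Bl/6J mice that had received 7 Gy of irradiation and then a transplant of cells transduced with guides 24 h earlier. The transplanted cells were LSK cells, a fraction enriched in stem and progenitor cells, of Cas9 knock-in mice, so every group carried Cas9 and at least 1 guide. There were 4 arrays of BRSST+sgEzh2, in which a guide against Ezh2 was added to the guide combination that the submitters call BRSST, 5 arrays of BRSST+sgLuc, in which the sgLuc guide took its place, and 4 arrays of sgLuc alone. The labels do not spell out BRSST. Marrow was taken at signs of leukemia or after 6 months, and neither outcome nor time is given per sample. No sort for guide-carrying cells is described, so the recipients' own cells can contribute RNA.

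Ezh2 itself, the histone methyltransferase gene that the extra guide targets, had a mean log2 signal of 8.78 ± 0.50 in BRSST+sgEzh2 and 9.82 ± 0.50 in BRSST+sgLuc, against 10.35 ± 0.28 in sgLuc (SD, n = 4, 5 and 4). Its log2 difference in BRSST+sgEzh2 was -1.57 ± 0.28 from sgLuc (limma adjusted p = 0.00306) and -1.05 ± 0.26 from BRSST+sgLuc (0.0808), so the loss against BRSST+sgLuc did not pass. Neutrophil markers were high in all groups, with a log2 summed signal of 16.40 to 16.51 in BRSST+sgEzh2 and 16.38 to 16.48 in BRSST+sgLuc, against 16.49 to 16.61 in sgLuc. Of 12 neutrophil markers, 1 fell and 1 rose in BRSST+sgEzh2, and 4 fell and 1 rose in BRSST+sgLuc (limma adjusted p under 0.05). Against sgLuc, 3.86% of all genes tested fell and 5.51% rose in BRSST+sgEzh2. In BRSST+sgLuc 11.7% fell and 10.8% rose. The Y-linked genes Uty and Kdm5d had high signals in BRSST+sgEzh2 on 2 of 4 arrays, in BRSST+sgLuc on 2 of 5 and in sgLuc on 4 of 4. The submitters' sample numbers of sgLuc do not adjoin those of the BRSST groups, and a batch of arrays cannot be told apart from the sgLuc group. The labels do not state whether the arrays of a group stand for different mice, and every p-value refers to the spread among these arrays alone, which may be technical.

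Many interferon-stimulated genes had lower signals in both BRSST groups than in sgLuc marrow. Between the BRSST groups 0 of the 27 tested genes passed limma's test, where only 0.783% of all genes tested did. With BRSST+sgLuc against sgLuc, 15 of the 27 tested genes fell and 0 rose (limma, Benjamini-Hochberg adjusted p under 0.05), beside 11.7% of all genes tested that fell and 10.8% that rose. With BRSST+sgEzh2 against sgLuc, 13 of 27 fell and 0 rose, beside 3.86% and 5.51% of all genes tested. The filter let Oasl2, Ifit1bl2, Ifi27l2a and Rtp4 pass only because sgLuc arrays were counted. Without these 4, 12 of 23 tested genes fell in BRSST+sgLuc and 11 of 23 in BRSST+sgEzh2. The fit with no filter covers all 35 genes with a row. In it 20 of 35 fell in BRSST+sgLuc (6.49% of 19505 genes) and 12 of 35 in BRSST+sgEzh2 (2.39%). The median log2 difference of the 35 was -0.79 in BRSST+sgLuc, where that of all genes was 0.04, and -0.55 in BRSST+sgEzh2, where that of all genes was 0.00. Both comparisons use the same 4 sgLuc arrays. In whole marrow, fewer cells of a type and less RNA per cell cannot be told apart.

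**Figure D1:**
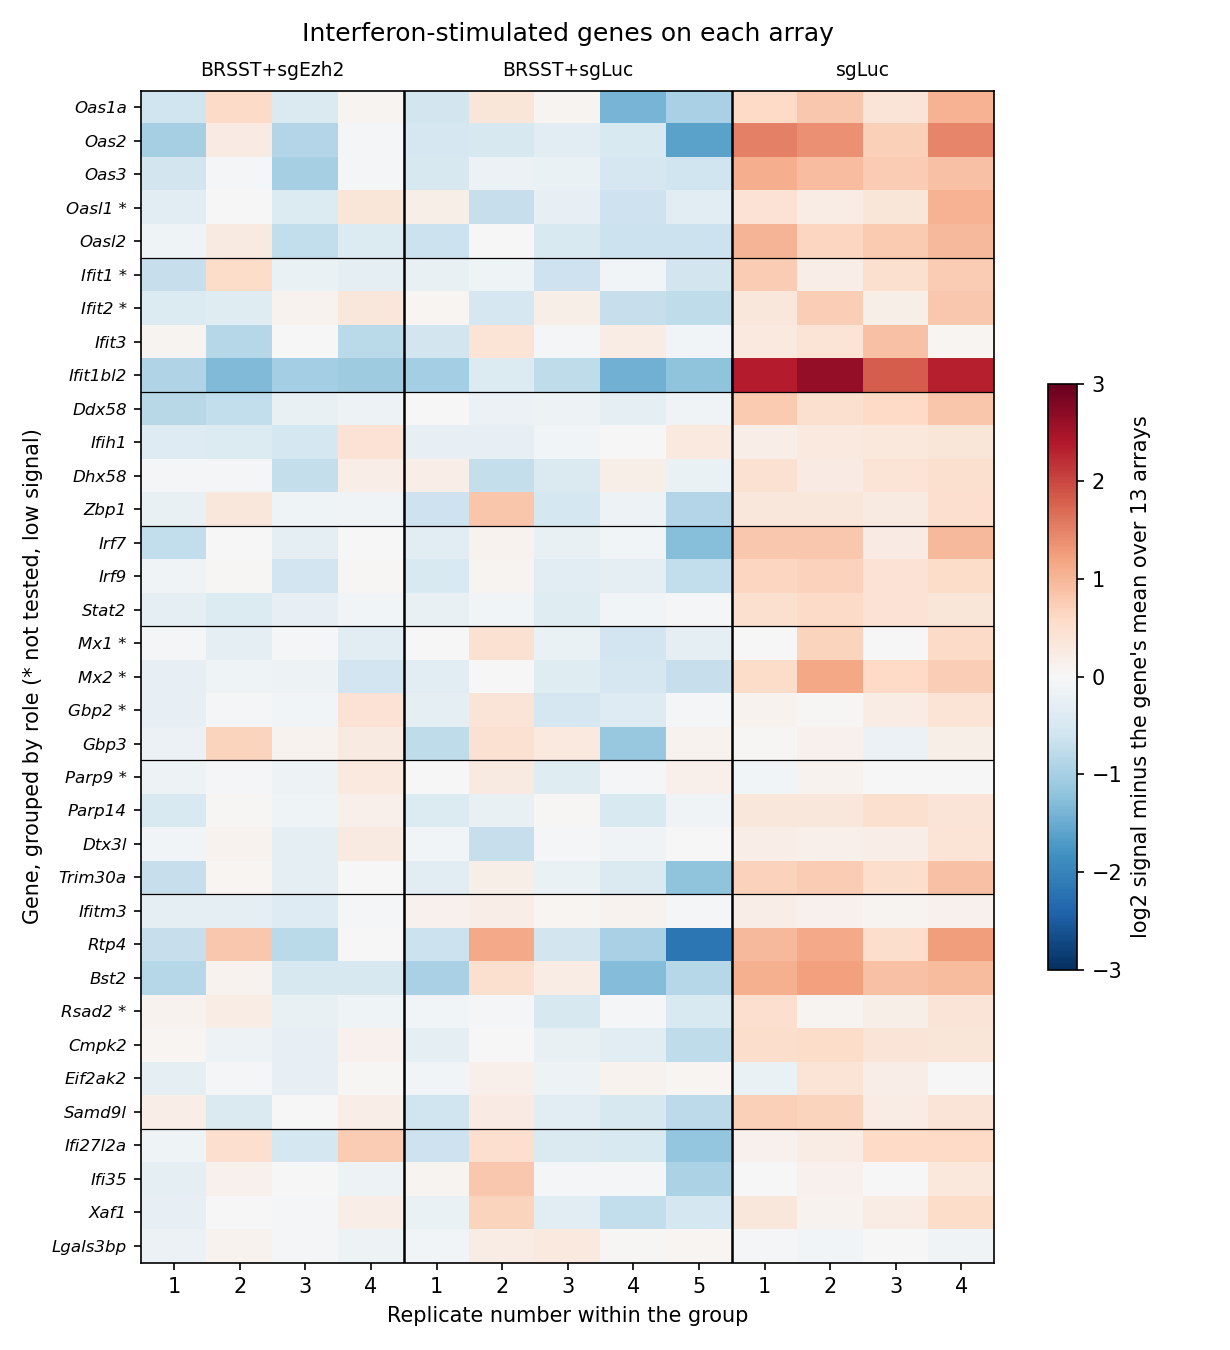
Log2 signal of 35 interferon-stimulated genes (rows, grouped by role) on 13 arrays (columns, by group and replicate number), shown as the difference from the mean of each gene over all arrays. The 4 sgLuc arrays are red for most genes, Ifit1bl2 has the widest range, and Gbp3, Parp9 and Lgals3bp show no such block; genes marked with an asterisk did not pass the filter.

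The letters of the promoters of the interferon-stimulated genes were also read. Windows of 250 bases before the start of each gene were taken from RefSeq (GRCm38.p6) and searched on both strands for GAAA, any 2 bases and GAAA, the core of the interferon-stimulated response element. Overlapping matches were counted. A window was at hand for 26 of the 35 genes, and 11 of the 26 (42.3%) held a match, where 3.46% of 27025 genes did. The list was chosen as genes induced by interferon, so a share above that of all genes comes with the choice. It says nothing of the fall. Ifit1 and Ifit1bl2 are both among the 11, with the same matches. By the fit with no filter, 8 of the 16 genes that fell in BRSST+sgLuc and had a window held a match, and 3 of the 10 others did. For BRSST+sgEzh2, 5 of the 10 genes that fell and 6 of the 16 others did. A match is a description of letters and not a measured site. The 6 windows below all hold a match and belong to genes whose values are given further on. They are not typical of all genes that fell. By the fit with no filter Oasl1, Oasl2, Ifit2, Ddx58, Irf7, Irf9, Cmpk2 and Samd9l also fell in BRSST+sgLuc. Their windows held no match and are not printed. Ifit1bl2 and Trim30a each have another start in RefSeq, whose window held no match and is not printed. Bases of a match are in capitals, and a match on the opposite strand reads TTTC, any 2 bases and TTTC:
Ifit1bl2, chr19:34640744-34640993, minus strand: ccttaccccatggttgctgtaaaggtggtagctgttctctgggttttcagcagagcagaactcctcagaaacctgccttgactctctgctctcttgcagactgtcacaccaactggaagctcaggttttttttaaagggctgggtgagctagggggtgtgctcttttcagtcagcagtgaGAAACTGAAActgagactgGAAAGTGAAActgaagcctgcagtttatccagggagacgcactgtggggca
Ifit1, chr19:34640639-34640888, plus strand: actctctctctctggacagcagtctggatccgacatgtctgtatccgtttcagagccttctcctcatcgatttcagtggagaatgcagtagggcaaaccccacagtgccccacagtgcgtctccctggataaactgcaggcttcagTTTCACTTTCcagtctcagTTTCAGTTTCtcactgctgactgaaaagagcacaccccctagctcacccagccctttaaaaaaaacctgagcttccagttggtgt
Oas3, chr5:120777660-120777909, minus strand: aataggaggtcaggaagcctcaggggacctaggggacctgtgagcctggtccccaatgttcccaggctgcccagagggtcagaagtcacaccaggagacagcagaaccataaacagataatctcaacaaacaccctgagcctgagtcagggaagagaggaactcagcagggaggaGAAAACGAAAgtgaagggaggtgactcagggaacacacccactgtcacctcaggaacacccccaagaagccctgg
Bst2, chr8:71537473-71537722, minus strand: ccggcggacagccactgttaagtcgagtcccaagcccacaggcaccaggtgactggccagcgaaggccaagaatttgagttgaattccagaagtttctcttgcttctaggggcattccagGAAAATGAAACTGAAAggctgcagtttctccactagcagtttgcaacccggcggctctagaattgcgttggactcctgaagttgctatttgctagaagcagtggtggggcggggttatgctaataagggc
Trim30a, chr7:104465194-104465443, minus strand: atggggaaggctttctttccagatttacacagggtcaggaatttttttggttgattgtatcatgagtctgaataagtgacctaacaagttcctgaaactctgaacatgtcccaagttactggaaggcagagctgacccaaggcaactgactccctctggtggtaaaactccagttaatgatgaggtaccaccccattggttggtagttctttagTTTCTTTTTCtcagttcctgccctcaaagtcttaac
Stat2, chr10:128270248-128270497, plus strand: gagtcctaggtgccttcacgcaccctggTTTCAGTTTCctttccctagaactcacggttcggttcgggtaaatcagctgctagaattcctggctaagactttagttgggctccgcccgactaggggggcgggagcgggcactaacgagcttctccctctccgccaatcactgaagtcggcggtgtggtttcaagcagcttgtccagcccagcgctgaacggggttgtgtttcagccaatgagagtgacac
Ifit1bl2 and Ifit1 face away from each other on chromosome 19 and share 145 bases of these windows, so the 2 matches of the one are the 2 matches of the other on the opposite strand. Those of Ifit1bl2 begin 51 and 70 bases before its start. The matches of Oas3, Trim30a and Stat2 begin 75, 36 and 222 bases before the start, and the overlapping pair of Bst2 begins 124 and 130 bases before it.

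The 2-5A synthetase family makes the short adenylate chains that switch on RNase L. All 4 tested members fell in BRSST+sgLuc, and 3 fell in BRSST+sgEzh2. Oas2 had log2 signals of 7.13, 8.37, 7.26 and 8.07 in BRSST+sgEzh2 and 7.63, 7.66, 7.82, 7.67 and 6.52 in BRSST+sgLuc, against 9.64, 9.50, 8.86 and 9.61 in sgLuc. Every sgLuc array lay above every BRSST array. The log2 difference of Oas2 from sgLuc was -1.70 ± 0.32 (SE) in BRSST+sgEzh2, 3.24-fold lower (limma adjusted p = 0.0043), and -1.95 ± 0.30 in BRSST+sgLuc, 3.85-fold lower (0.000736). Oasl2, a synthetase-like protein, had 7.01, 7.40, 6.41 and 6.72 in BRSST+sgEzh2 and 6.49, 7.12, 6.69, 6.49 and 6.50 in BRSST+sgLuc, against 8.17, 7.78, 7.92 and 8.12 in sgLuc. Its groups did not overlap with sgLuc either. Its difference was -1.11 ± 0.20 in BRSST+sgEzh2 (limma adjusted p = 0.00337) and -1.33 ± 0.19 in BRSST+sgLuc (0.000416). Oas3, whose window is printed above, fell 2.51-fold in BRSST+sgEzh2 (-1.33 ± 0.19, limma adjusted p = 0.000605) and 2.47-fold in BRSST+sgLuc (-1.31 ± 0.18, 0.000337). Oas1a averaged 8.07 ± 0.53 in BRSST+sgEzh2 and 7.67 ± 0.73 in BRSST+sgLuc, against 8.88 ± 0.28 in sgLuc (SD). It fell in BRSST+sgLuc (-1.21 ± 0.33, limma adjusted p = 0.0178, and 0.0546 without sgLuc replicate 4), while its difference in BRSST+sgEzh2 was -0.81 ± 0.35 (0.167). Oas1a has close paralogs in the same cluster, so part of its signal may be theirs. Oasl1, a synthetase-like protein that restrains Irf7 translation in mice, was not tested for low signal. The fit with no filter gave -0.62 ± 0.22 in BRSST+sgEzh2 (limma adjusted p = 0.141) and -0.87 ± 0.21 in BRSST+sgLuc (0.0141).

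IFIT proteins bind foreign RNA ends and stop their translation. Ifit1bl2, a paralog of Ifit1, showed the widest difference of the 35 genes. It had 5.21, 4.79, 5.11 and 5.06 in BRSST+sgEzh2 and 5.10, 5.71, 5.36, 4.69 and 4.91 in BRSST+sgLuc, against 8.48, 8.77, 7.95 and 8.46 in sgLuc. All 9 BRSST signals lay below the median of their arrays, so the size of the fold is uncertain. It was 10.4-fold lower in BRSST+sgEzh2 (-3.37 ± 0.21, limma adjusted p = 8.62e-07) and 9.58-fold lower in BRSST+sgLuc (-3.26 ± 0.20, 1.01e-06). Ifit1, which shares the promoter stretch printed above, had 5.70, 6.95, 6.20 and 6.10 in BRSST+sgEzh2 and 6.18, 6.26, 5.78, 6.31 and 5.85 in BRSST+sgLuc, against 7.16, 6.60, 6.87 and 7.16 in sgLuc. BRSST+sgEzh2 replicate 2 reached the sgLuc range, and no BRSST+sgLuc array did. Ifit1 lay below the array median on all 13 arrays. With no filter its difference was -0.72 ± 0.22 in BRSST+sgEzh2 (limma adjusted p = 0.0823) and -0.87 ± 0.21 in BRSST+sgLuc (0.014). Ifit2 gave -0.60 ± 0.23 in BRSST+sgEzh2 (limma adjusted p = 0.185) and -0.87 ± 0.22 in BRSST+sgLuc (0.0193) in that fit. Ifit3, the partner that stabilises Ifit1 in human cells, was tested and did not pass, with -0.80 ± 0.25 in BRSST+sgEzh2 (limma adjusted p = 0.064) and -0.42 ± 0.24 in BRSST+sgLuc (0.237). IFIT paralogs are alike in sequence and their probes can share signal. Ifit1bl1, the nearest paralog of Ifit1bl2, had 5.93, 6.28, 8.50 and 6.67 in BRSST+sgEzh2 and 5.37, 7.04, 6.01, 5.29 and 5.37 in BRSST+sgLuc, against 7.46, 7.16, 7.41 and 7.63 in sgLuc. BRSST+sgEzh2 replicate 3 was its highest array, which Ifit1bl2 did not show.

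Of the 4 sensors of RNA and DNA, Ddx58 (RIG-I), a receptor for viral RNA ends, passed the test and the other 3 did not. It had 8.01, 8.10, 8.62 and 8.70 in BRSST+sgEzh2 and 8.85, 8.68, 8.69, 8.55 and 8.74 in BRSST+sgLuc, against 9.63, 9.33, 9.45 and 9.69 in sgLuc. The sgLuc arrays lay above all others, and the BRSST+sgLuc arrays lay close together. Ddx58 was 2.25-fold lower in BRSST+sgEzh2 (-1.17 ± 0.16, limma adjusted p = 0.000382) and 1.77-fold lower in BRSST+sgLuc (-0.82 ± 0.15, 0.00188). Zbp1, a sensor of Z-form nucleic acids that can start necroptosis, had 7.92, 8.49, 8.01 and 8.03 in BRSST+sgEzh2 and 7.53, 8.97, 7.62, 8.0 and 7.27 in BRSST+sgLuc, against 8.49, 8.49, 8.41 and 8.64 in sgLuc. BRSST+sgLuc replicate 2 was the highest array of all, and both BRSST groups overlapped sgLuc. Zbp1 differed by -0.40 ± 0.28 in BRSST+sgEzh2 (limma adjusted p = 0.432) and by -0.63 ± 0.27 in BRSST+sgLuc (0.103). It passed there with array weights (limma adjusted p = 0.000994), without BRSST+sgLuc replicate 2 (0.00151) and under 2 settings chosen after seeing the data (0.0129 at most). Ifih1 (MDA5), a receptor for long double-stranded RNA, differed by -0.51 in BRSST+sgEzh2 (limma adjusted p = 0.105) and -0.35 in BRSST+sgLuc (0.172) and did not pass. Dhx58 (LGP2), their regulator, did not overlap sgLuc in either group, yet missed the threshold (-0.55 in BRSST+sgEzh2, limma adjusted p = 0.134, and -0.59 in BRSST+sgLuc, 0.0534).

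The transcription factors that carry the interferon signal fell in both BRSST groups. Irf7, which drives interferon genes, had 8.35, 9.09, 8.83 and 9.09 in BRSST+sgEzh2 and 8.76, 9.20, 8.87, 9.02 and 7.82 in BRSST+sgLuc, against 9.91, 9.90, 9.35 and 10.08 in sgLuc. Its groups did not overlap with sgLuc, and BRSST+sgLuc replicate 5 was the lowest array. Irf7 was 1.96-fold lower in BRSST+sgEzh2 (-0.97 ± 0.27, limma adjusted p = 0.0368, lost in 7 of 25 other settings with up to 0.109) and 2.11-fold lower in BRSST+sgLuc (-1.08 ± 0.25, 0.0087). Irf9, the DNA-binding partner of Stat2, had 8.92, 9.06, 8.45 and 9.05 in BRSST+sgEzh2 and 8.56, 9.09, 8.67, 8.74 and 8.27 in BRSST+sgLuc, against 9.65, 9.71, 9.45 and 9.57 in sgLuc. It too separated from sgLuc on every array. Its difference was -0.72 ± 0.17 in BRSST+sgEzh2 (limma adjusted p = 0.017, and 0.0556 at most with 1 array left out) and -0.92 ± 0.16 in BRSST+sgLuc (0.00163). Stat2 varied little within groups and fell by 0.71 ± 0.11 in BRSST+sgEzh2 (limma adjusted p = 0.000825) and by 0.63 ± 0.10 in BRSST+sgLuc (0.000973). Its means were 9.25 ± 0.13 in BRSST+sgEzh2 and 9.33 ± 0.12 in BRSST+sgLuc, against 9.96 ± 0.09 in sgLuc (SD).

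**Figure D2:**
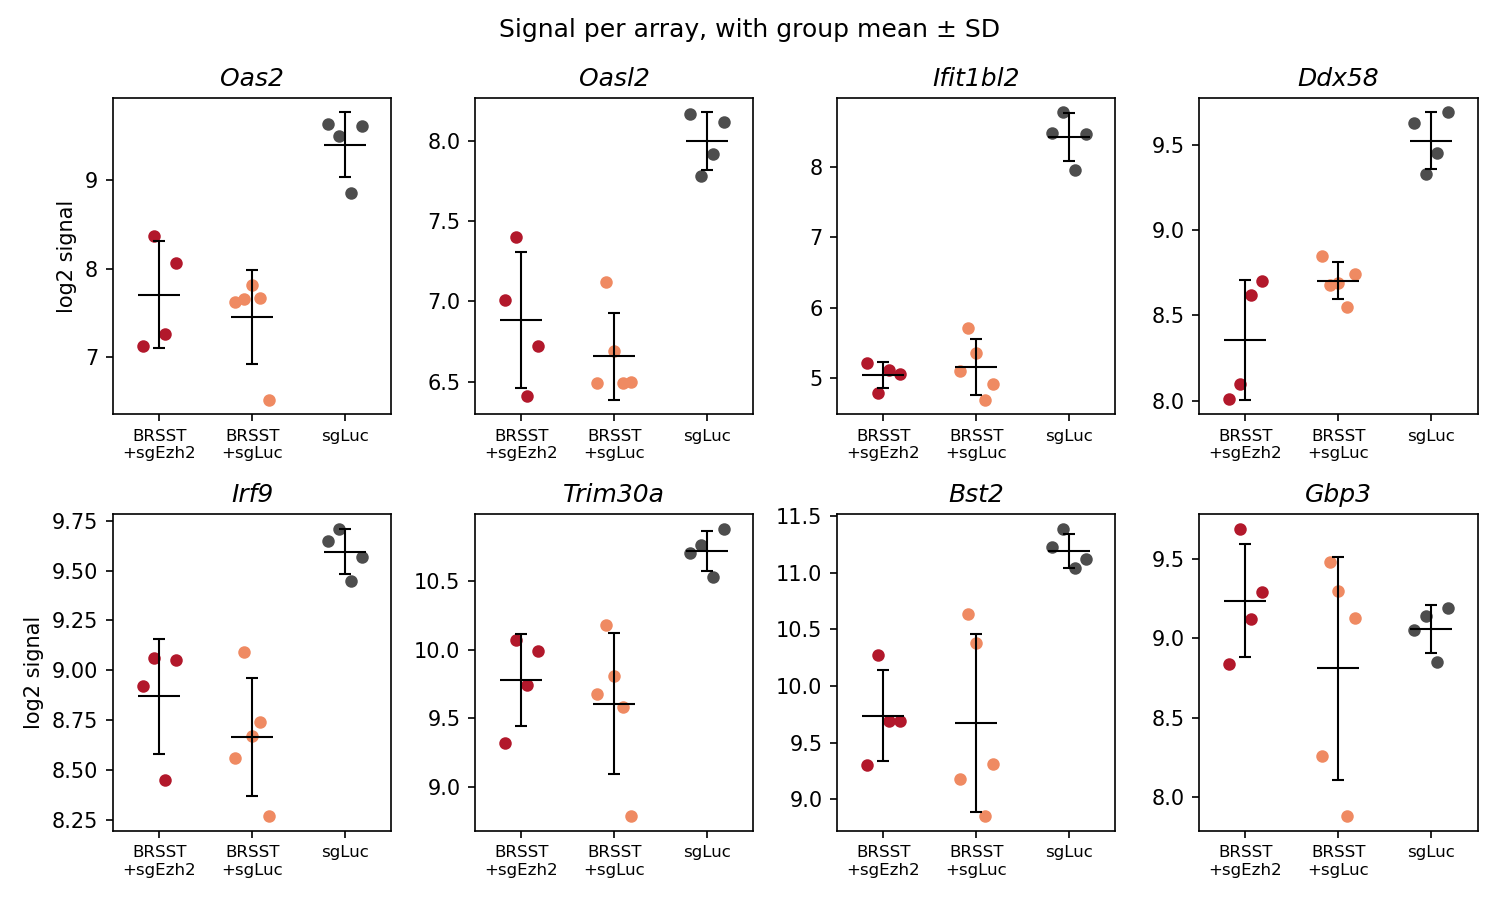
Log2 signal per array (points) with the group mean and SD (black) for 8 interferon-stimulated genes in BRSST+sgEzh2 (n = 4), BRSST+sgLuc (n = 5) and sgLuc (n = 4); each panel has its own axis, which does not start at 0. In 7 panels all sgLuc points lie above all BRSST points, and in that of Gbp3 the 3 groups overlap.

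Of the 4 GTPases, Mx1, Mx2 and Gbp2 had signals too low to be tested. Mx2, a gene of the dynamin-like GTPase family, had 5.81, 5.93, 5.90 and 5.48 in BRSST+sgEzh2 and 5.72, 6.06, 5.69, 5.57 and 5.38 in BRSST+sgLuc, against 6.61, 7.22, 6.66 and 6.79 in sgLuc. The BRSST arrays lay below the sgLuc arrays without exception. Its difference with no filter was -1.04 ± 0.16 in BRSST+sgEzh2 (limma adjusted p = 0.00168) and -1.13 ± 0.16 in BRSST+sgLuc (0.00039). Mx1, which carries an inactivating deletion in many laboratory strains, had 5.14, 4.91, 5.16 and 4.88 in BRSST+sgEzh2 and 5.20, 5.65, 5.0, 4.62 and 4.90 in BRSST+sgLuc, against 5.19, 5.87, 5.19 and 5.77 in sgLuc. These signals are low and close together, and Mx1 did not pass (limma adjusted p with no filter, 0.234 in BRSST+sgEzh2 and 0.187 in BRSST+sgLuc). Gbp3, a guanylate-binding protein that attacks microbe-containing vacuoles, was the only member with a higher mean in BRSST+sgEzh2 than in sgLuc. It averaged 9.23 ± 0.36 in BRSST+sgEzh2 and 8.81 ± 0.70 in BRSST+sgLuc, against 9.06 ± 0.15 in sgLuc (SD), with limma adjusted p = 0.795 for BRSST+sgEzh2 and 0.602 for BRSST+sgLuc against sgLuc. Gbp2 ran at 6.60 to 7.28 in BRSST+sgEzh2 and 6.35 to 7.25 in BRSST+sgLuc, against 6.88 to 7.27 in sgLuc, and was not tested for low signal.

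Among ADP-ribosylation and ubiquitin genes Trim30a and Parp14 fell, and the partners Parp9 and Dtx3l did not pass. Trim30a, a TRIM protein that restrains NF-kB signalling in mice, had 9.32, 10.07, 9.74 and 9.99 in BRSST+sgEzh2 and 9.68, 10.18, 9.81, 9.58 and 8.79 in BRSST+sgLuc, against 10.70, 10.76, 10.53 and 10.88 in sgLuc. No BRSST array reached sgLuc, and BRSST+sgLuc replicate 5 was again the lowest. Its difference was -0.94 ± 0.24 in BRSST+sgEzh2 (limma adjusted p = 0.0262, lost in 5 of 13 fits with 1 array left out with up to 0.085) and -1.11 ± 0.23 in BRSST+sgLuc (0.00411). Parp14, a mono-ADP-ribosyltransferase, had 6.87, 7.37, 7.19 and 7.49 in BRSST+sgEzh2 and 6.92, 7.11, 7.36, 6.86 and 7.23 in BRSST+sgLuc, against 7.67, 7.67, 7.80 and 7.72 in sgLuc. Its groups did not overlap, and its difference was -0.49 ± 0.14 in BRSST+sgEzh2 (limma adjusted p = 0.0498) and -0.62 ± 0.14 in BRSST+sgLuc (0.00612). The first of these calls is at the threshold and ended under 14 of 24 other settings (limma adjusted p from 0.00286 to 0.144). Parp9 had group means of 6.05 in BRSST+sgEzh2 and 6.06 in BRSST+sgLuc, against 6.07 in sgLuc. Dtx3l, the ubiquitin ligase that binds Parp9, differed by -0.24 in BRSST+sgEzh2 (limma adjusted p = 0.391) and -0.43 in BRSST+sgLuc (0.0572).

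Membrane proteins and direct antiviral effectors gave falls of very different size. Bst2 (tetherin), which holds budding virus at the cell surface, had 9.30, 10.27, 9.69 and 9.69 in BRSST+sgEzh2 and 9.18, 10.64, 10.38, 8.85 and 9.31 in BRSST+sgLuc, against 11.23, 11.39, 11.04 and 11.12 in sgLuc. All BRSST arrays lay below sgLuc, and BRSST+sgLuc replicates 2 and 3 stood above the other 3 of their group. Bst2 was 2.75-fold lower in BRSST+sgEzh2 (-1.46 ± 0.34, limma adjusted p = 0.0158, and 0.0538 at most with 1 array left out) and 2.88-fold lower in BRSST+sgLuc (-1.52 ± 0.32, 0.00483). Rtp4, an interferon-induced regulator of the response, had 6.31, 7.81, 6.20 and 7.01 in BRSST+sgEzh2 and 6.36, 8.15, 6.46, 6.03 and 4.85 in BRSST+sgLuc, against 7.98, 8.14, 7.54 and 8.27 in sgLuc. Replicate 2 of each BRSST group reached the sgLuc range. Rtp4 differed by -1.15 ± 0.53 in BRSST+sgEzh2 (limma adjusted p = 0.198) and fell in BRSST+sgLuc (-1.61 ± 0.50, 0.0329). That call was lost without BRSST+sgLuc replicate 1, 4 or 5 or sgLuc replicate 1, 2 or 4, and with the class of Uty and Kdm5d as a block (limma adjusted p of up to 0.0807). The difference in BRSST+sgEzh2 passed under 4 of 24 other settings (lowest limma adjusted p 0.00472). Cmpk2, a nucleotide kinase, fell by 0.51 ± 0.15 in BRSST+sgEzh2 (limma adjusted p = 0.0418) and by 0.79 ± 0.14 in BRSST+sgLuc (0.00165). The first of these calls was lost in 11 of 25 other settings, among them the fit with no filter (limma adjusted p of up to 0.117). Its neighbour on chromosome 12, Rsad2 (viperin), which makes a chain-terminating nucleotide, was too low to be tested and differed with no filter by -0.29 ± 0.14 in BRSST+sgEzh2 (limma adjusted p = 0.33) and -0.52 ± 0.14 in BRSST+sgLuc (0.0225). Samd9l, a translation repressor and myeloid tumour suppressor, fell in BRSST+sgLuc (-0.89 ± 0.20, limma adjusted p = 0.00692) and differed by -0.51 ± 0.21 in BRSST+sgEzh2 (0.152). Ifitm3, which blocks virus fusion, fell in BRSST+sgEzh2 (-0.38 ± 0.10, limma adjusted p = 0.0305) and differed by -0.05 ± 0.10 with BRSST+sgLuc (0.786). Its BRSST+sgEzh2 signals of 11.99 to 12.34 and those of 12.46 to 12.58 in sgLuc did not overlap. That call was lost in 7 of 25 other settings (limma adjusted p of up to 0.098). Eif2ak2 (PKR), the kinase that stops translation on double-stranded RNA, differed by -0.23 ± 0.13 in BRSST+sgEzh2 (limma adjusted p = 0.316) and -0.08 ± 0.13 in BRSST+sgLuc (0.707).

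The remaining induced genes had 0 calls among 4 tested in any comparison by limma. Ifi27l2a had 6.98, 7.62, 6.60 and 7.88 in BRSST+sgEzh2 and 6.49, 7.63, 6.68, 6.67 and 5.95 in BRSST+sgLuc, against 7.25, 7.34, 7.72 and 7.71 in sgLuc. Both BRSST groups overlapped sgLuc, and its difference was -0.24 ± 0.32 in BRSST+sgEzh2 (limma adjusted p = 0.724) and -0.82 ± 0.30 in BRSST+sgLuc (0.0656). Xaf1, a binding partner of the apoptosis inhibitor Xiap, had 7.56, 7.79, 7.78 and 8.01 in BRSST+sgEzh2 and 7.61, 8.48, 7.46, 7.08 and 7.28 in BRSST+sgLuc, against 8.16, 7.91, 8.03 and 8.36 in sgLuc. It overlapped in the same way, with BRSST+sgLuc replicate 2 above every other array. Xaf1 differed by -0.33 ± 0.24 in BRSST+sgEzh2 (limma adjusted p = 0.443) and -0.53 ± 0.22 in BRSST+sgLuc (0.104). Ifi27l2a and Xaf1 each passed in BRSST+sgLuc under 4 other settings, array weights and the fit without BRSST+sgLuc replicate 2 among them (lowest limma adjusted p 0.0041 for Ifi27l2a and 0.00223 for Xaf1). Ifi35 differed by -0.19 in BRSST+sgEzh2 and -0.14 in BRSST+sgLuc. Lgals3bp, a secreted glycoprotein, differed by -0.01 in BRSST+sgEzh2 and 0.17 in BRSST+sgLuc.

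**Figure D3:**
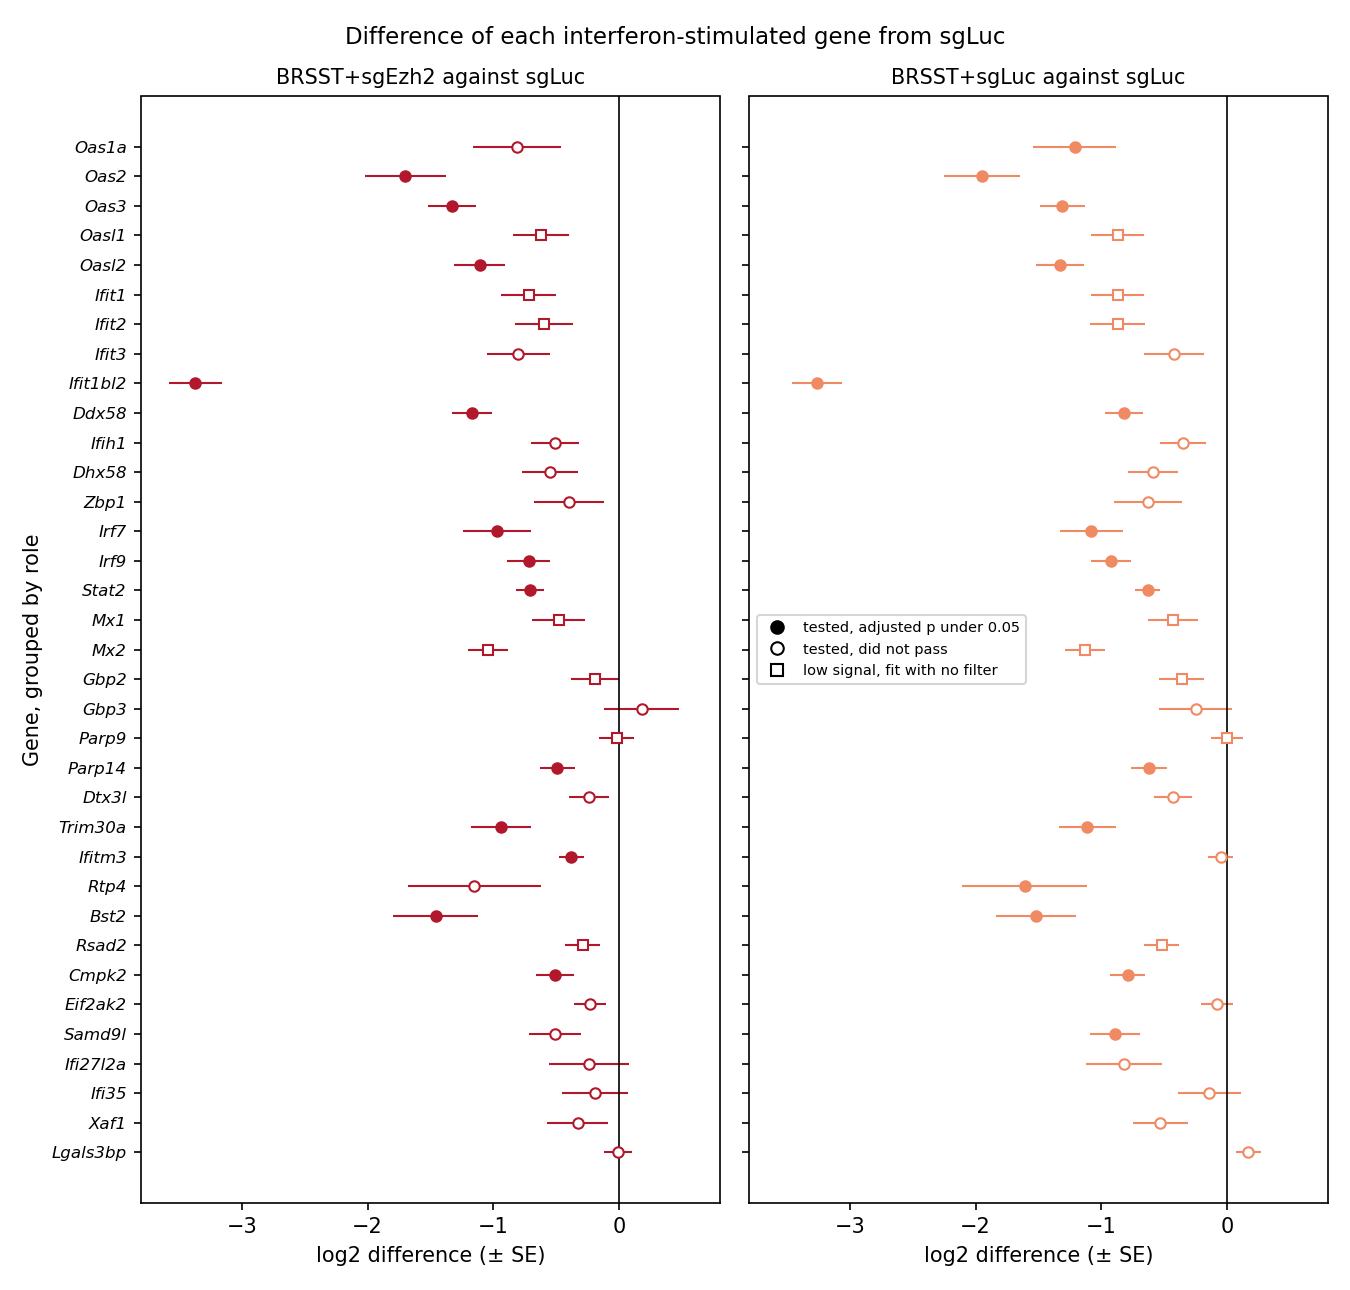
Log2 difference from sgLuc with its SE for each of 35 interferon-stimulated genes, for BRSST+sgEzh2 (left) and BRSST+sgLuc (right). Filled circles passed limma's test (13 on the left, 15 on the right), open circles did not, and squares are genes of low signal taken from the fit with no filter; nearly all points lie left of 0.

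Of the tested genes, 12 fell in both comparisons with sgLuc: Oas2, Oas3, Oasl2, Ifit1bl2, Ddx58, Irf7, Irf9, Stat2, Parp14, Trim30a, Bst2 and Cmpk2. Among them, Oasl2 and Ifit1bl2 passed the filter only because sgLuc arrays were counted, and both also fell in the fit with no filter. Oas1a, Rtp4 and Samd9l passed in BRSST+sgLuc alone, Ifitm3 in BRSST+sgEzh2 alone, and 11 passed in neither. Groups did not overlap for 17 of 35 genes with BRSST+sgEzh2, all lower, beside 6.16% of all genes, and for 20 of 35 with BRSST+sgLuc, all lower, beside 6.32%. The count of 13 in BRSST+sgEzh2 ran from 6 to 14 with 1 array left out. It was 7 without BRSST+sgEzh2 replicate 1 and 7, 6 or 8 without sgLuc replicate 1, 2 or 4. In these fits the median log2 difference of the 27 tested genes stayed between -0.67 and -0.52. Oas2, Oas3, Oasl2, Ifit1bl2, Ddx58 and Stat2 kept their calls in both comparisons under each alternative that tested them; the filter at the 75th percentile tested only Ddx58 and Stat2 of these. The count of 15 in BRSST+sgLuc stayed between 13 and 18 with any 1 array left out. With the high or low class of Uty and Kdm5d as a block, 10 of 27 genes fell with BRSST+sgEzh2 and 14 of 27 with BRSST+sgLuc, and the calls of Irf7, Cmpk2 and Ifitm3 in BRSST+sgEzh2 and of Rtp4 in BRSST+sgLuc were lost. Within the arrays of high class, a setting chosen after seeing the data, 15 of 27 genes fell with BRSST+sgEzh2 (2 arrays against 4) and 21 of 27 with BRSST+sgLuc (2 against 4). The share of all genes that fell under these other settings is not given here. Their counts therefore cannot be set beside a background.

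Between BRSST+sgEzh2 and BRSST+sgLuc, which asks what the Ezh2 guide adds, 0 of 27 genes passed limma's test, where 0.783% of all genes tested did. Adjusted p ran from 0.124 to 0.975. At an unadjusted limma p of 0.05, 2 of 27 were lower, Ifitm3 (-0.34 ± 0.10, limma adjusted p = 0.124) and Ddx58 (-0.34 ± 0.15, adjusted p = 0.313), and 0 were higher, beside 4.22% and 9.67% of all genes tested. Ifitm3 passed with array weights and with trended variance. No gene of the 35 separated the groups, where 1.36% of all genes did so lower and 1.88% higher. The largest differences were those of Ifi27l2a (0.59 ± 0.30, limma adjusted p = 0.416), Rtp4 (0.46 ± 0.50, 0.739) and Gbp3 (0.42 ± 0.29, 0.561). The median difference of the 35 was 0.16 beside -0.03 for all genes. With standard errors of up to 0.50, a p that misses the threshold does not show that the groups are alike.

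The mean log2 signal over the 35 genes was 7.93 ± 0.18 in BRSST+sgEzh2 and 7.83 ± 0.24 in BRSST+sgLuc, against 8.64 ± 0.09 in sgLuc (SD). Single arrays lay between 7.77 and 8.09 in BRSST+sgEzh2 and between 7.56 and 8.21 in BRSST+sgLuc, against 8.52 and 8.74 in sgLuc, so no BRSST array reached the control range. In BRSST+sgLuc replicate 2, 29 of 35 genes lay above the mean of the group, and in replicate 5 only 9 did. All genes tested split 48.3% and 49.4% above the group mean on those arrays. In BRSST+sgEzh2 replicates 2 and 4, 23 and 25 of 35 lay above the group mean, while replicates 1 and 3 had 10 each. The median SD of a gene over arrays was 0.30, 0.36 and 0.17 for the 35 genes in BRSST+sgEzh2, BRSST+sgLuc and sgLuc, and 0.19, 0.25 and 0.15 for all genes tested. The 35 include 8 genes that did not pass the filter, which the genes tested leave out, so these sets are not alike.

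**Figure D4:**
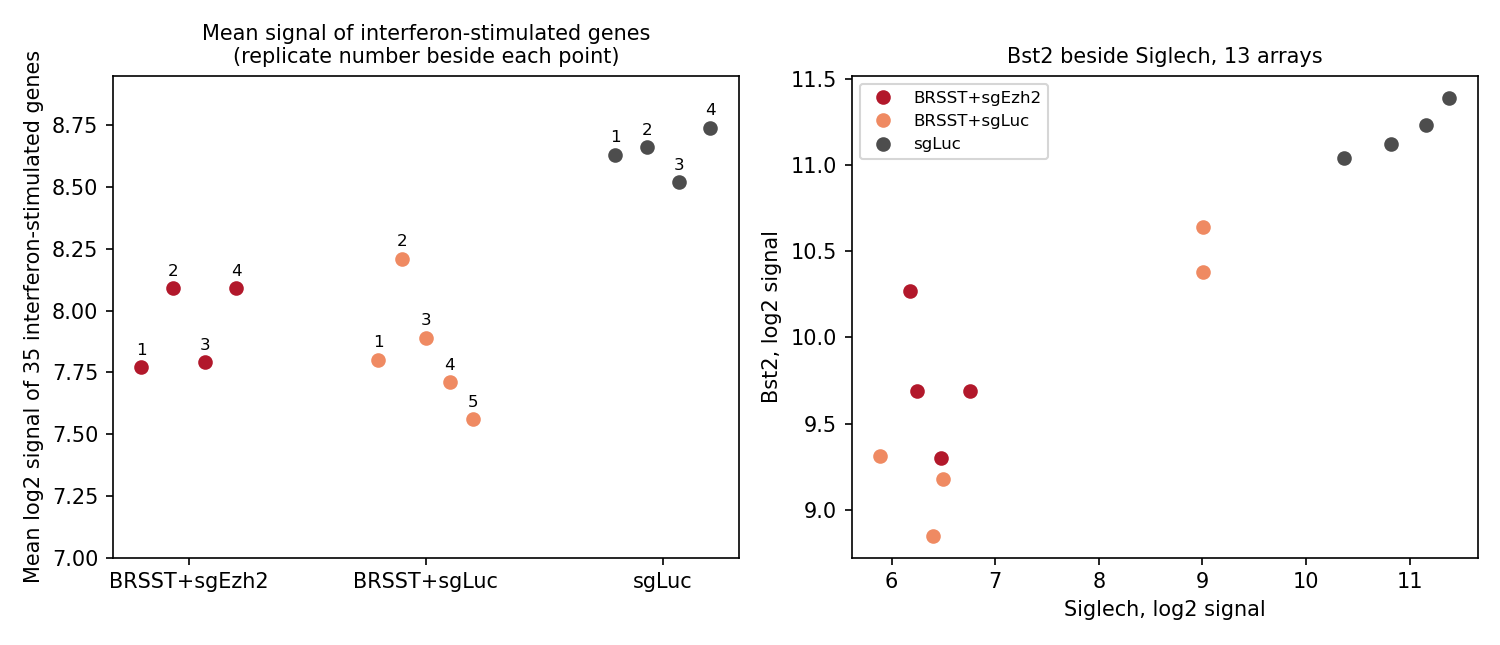
Left, mean log2 signal of 35 interferon-stimulated genes per array, by group, with the replicate number; right, log2 signal of Bst2 against that of Siglech, a plasmacytoid dendritic cell lectin, on the same 13 arrays. The sgLuc arrays are highest in both panels, and BRSST+sgLuc replicates 2 and 3 (Siglech 9.01 each) lie between sgLuc and the other BRSST arrays on the right.

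Markers of several cell types also differed from sgLuc in the BRSST groups. Of all genes tested, 3.86% fell in BRSST+sgEzh2 and 11.7% in BRSST+sgLuc, and 5.51% and 10.8% rose. Of 8 tested plasmacytoid dendritic cell markers, 6 fell in BRSST+sgEzh2 and 6 in BRSST+sgLuc, and the log2 summed signal of the list was 11.17 to 12.68 in BRSST+sgEzh2 and 11.30 to 12.53 in BRSST+sgLuc, against 12.98 to 13.54 in sgLuc. Siglech had 6.48, 6.18, 6.25 and 6.76 in BRSST+sgEzh2 and 6.50, 9.01, 9.01, 6.40 and 5.89 in BRSST+sgLuc, against 11.16, 11.38, 10.37 and 10.82 in sgLuc. The 2 BRSST+sgLuc arrays with high Siglech, replicates 2 and 3, are those with high Bst2. Their signals of Ccr9, another marker, were 5.98 and 5.80, against 4.94 to 5.31 on the other BRSST+sgLuc arrays and 7.63 to 8.50 in sgLuc. Their Irf7 signals were 9.20 and 8.87, while replicate 4, with Siglech at 6.40, had 9.02. BRSST+sgEzh2 replicate 2 had a Bst2 signal of 10.27 beside a Siglech signal of 6.18. The highest log2 summed signal of the plasmacytoid list among BRSST arrays, 12.68, was that of BRSST+sgEzh2 replicate 3. On that array Siglech was at 6.25, Ccr9 at 5.11 and Bst2 at 9.69, so single markers and the list ranked the arrays differently. Of 9 B lineage markers, 2 fell in BRSST+sgEzh2 and 8 in BRSST+sgLuc. The log2 summed signal of the list was 10.66 to 13.23 in BRSST+sgEzh2 and 10.48 to 12.76 in BRSST+sgLuc, against 12.96 to 14.35 in sgLuc. Of 9 T and NK markers, 1 fell in BRSST+sgEzh2 and 6 in BRSST+sgLuc. The log2 summed signal of the list was 10.22 to 12.44 in BRSST+sgEzh2 and 10.68 to 12.19 in BRSST+sgLuc, against 12.18 to 12.65 in sgLuc. Of 11 monocyte and macrophage markers, 2 fell and 1 rose in BRSST+sgEzh2 and 5 fell in BRSST+sgLuc. The log2 summed signal of the list was 13.42 to 14.06 in BRSST+sgEzh2 and 12.98 to 13.72 in BRSST+sgLuc, against 13.86 to 13.98 in sgLuc. Of 6 conventional dendritic cell markers, 2 fell in BRSST+sgEzh2 and 3 in BRSST+sgLuc. The log2 summed signal of the list was 10.27 to 10.60 in BRSST+sgEzh2 and 10.04 to 11.05 in BRSST+sgLuc, against 11.08 to 11.40 in sgLuc. Of 5 basophil and mast cell markers, 3 fell in BRSST+sgEzh2 and 4 in BRSST+sgLuc. The log2 summed signal of the list was 10.65 to 11.99 in BRSST+sgEzh2 and 10.60 to 11.06 in BRSST+sgLuc, against 13.35 to 13.72 in sgLuc. Of 8 erythroid markers, 0 passed in BRSST+sgEzh2 and 4 rose in BRSST+sgLuc, with a log2 summed signal of 10.65 to 11.40 in BRSST+sgEzh2 and 11.66 to 12.77 in BRSST+sgLuc, against 10.80 to 11.14 in sgLuc. Of 3 megakaryocyte markers, 0 passed by limma in either group. An array gives no zero, but C1qc, Xcr1 and Vwf lay below the array median on all 13 arrays. The part of cell composition in the fall of the interferon-stimulated genes was not tested.

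Other genes of the pathway showed where else signal was lost. Of 27 tested type I interferon-induced genes outside the 36, 9 fell in BRSST+sgEzh2 and 15 in BRSST+sgLuc, and 0 rose. Beside this and the following lists, 3.86% of all genes tested fell in BRSST+sgEzh2 and 11.7% in BRSST+sgLuc. The lists are short and were chosen with earlier results of these data known. Slfn5, a schlafen family member, differed by -1.95 ± 0.39 in BRSST+sgEzh2 (limma adjusted p = 0.00693) and -2.56 ± 0.37 in BRSST+sgLuc (0.000487), and Phf11d by -1.46 ± 0.18 in BRSST+sgEzh2 (0.000236) and -1.43 ± 0.17 in BRSST+sgLuc (0.000164). In the ISG15 conjugation list 3 of 5 fell in BRSST+sgEzh2 and 2 of 5 in BRSST+sgLuc, among them Isg15 itself (-1.07 ± 0.21 in BRSST+sgEzh2, limma adjusted p = 0.0063, and -1.23 ± 0.20 in BRSST+sgLuc, 0.00113). Of 9 tested interferon gamma targets, 2 fell in BRSST+sgEzh2 and 5 in BRSST+sgLuc. Ciita, the switch of MHC class II genes, differed by -0.92 ± 0.22 in BRSST+sgEzh2 (limma adjusted p = 0.0205) and -0.88 ± 0.21 in BRSST+sgLuc (0.00973).

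Of 8 receptor and kinase genes, 1 fell and 1 rose in BRSST+sgEzh2, Ifngr2 (-0.47 ± 0.14, limma adjusted p = 0.0491) and Ifngr1 (0.61 ± 0.17, 0.0395), both chains of the interferon gamma receptor. In BRSST+sgLuc 3 of 8 fell, Ifnar1 (-0.64 ± 0.16, limma adjusted p = 0.0133), Ifngr2 (-0.58 ± 0.13, 0.00705) and Tyk2 (-0.39 ± 0.13, 0.0412). Of 9 genes of the induction arm, 0 passed in BRSST+sgEzh2 (limma) and 3 fell in BRSST+sgLuc, among them Tlr9, an endosomal DNA receptor (-1.79 ± 0.42, limma adjusted p = 0.00818). Of 9 negative regulators, 1 fell in BRSST+sgEzh2 and 3 in BRSST+sgLuc, with Usp18, which trims ISG15 and blocks the receptor, at -1.55 ± 0.28 in BRSST+sgEzh2 (limma adjusted p = 0.00362) and -1.65 ± 0.27 in BRSST+sgLuc (0.00104). Of 17 interferon genes with a row, 13 lay below the array median on all 13 arrays, Ifnb1 and Ifng among them, and 0 of the 4 tested passed in any comparison by limma. Against BRSST+sgLuc, BRSST+sgEzh2 marrow had 2 calls in these lists, a rise of Irf5, an interferon regulatory factor (0.52 ± 0.11, limma adjusted p = 0.0401), and a fall of Ube2l6, the ISG15 conjugating enzyme (-1.56 ± 0.24, 0.00692). Among all genes tested, 0.783% passed in that comparison.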

How the data were processed

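RNA of 13 marrow samples was measured on Affymetrix expression arrays, 1 per sample. Per the labels' protocols, 2 ng of total RNA was amplified with 10 PCR cycles before in vitro transcription, which can compress large differences. The deposited values are log2 signals, for which the submitters' processing notes name R 3.5.01 and the package oligo. Their background correction and normalization were not given in the sources used here. The log2 scale was read from the values (3.23 to 13.75, array medians 7.19 to 7.32). Precision is limited by the number of arrays.

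The table held 22203 rows, of which 19572 carried a single gene symbol, 2631 no symbol and 0 more than one. For a symbol with several rows, the brightest on average was kept. Differences come from limma (version 3.58.1, R 4.3.3; lmFit, then eBayes), with 1 fit over the 13 arrays and no covariates. P-values were adjusted by Benjamini-Hochberg across the tested genes, with calls at 0.05, and each adjusted p is limma's. The procedure was tested on simulated data. Plots were made in Python 3.11.15 (matplotlib 3.10.9). The interferon-stimulated genes, the pathway and marker lists and the alternatives were chosen with earlier results of these data known. Values of every array are given for the 2 genes of each role with the largest change in any comparison, and up to 3 genes of a pathway list were named by size of change. A log2 summed signal is log2 of the summed linear signals of the markers in a list. Alternatives were other filters, quantile or equal-median scaling, the mean of rows, trended and robust variance, array weights, the replicate number or Y-linked class as a block, only the groups compared, and each array left out.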

Additional observations from a re-analysis of the deposited data

Results flagged for a closer look

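In 3 of 105 sets of arrays (35 genes in 3 groups) a single array stood apart from its group by Dixon's test, where chance flags about 1 in 20. Oas2 in BRSST+sgLuc replicate 5 was at a log2 signal of 6.52, where the next array of the group was at 7.63. Ifih1 in BRSST+sgEzh2 replicate 4 was at 8.68, with the next array at 7.86. Dtx3l in BRSST+sgLuc replicate 2 was at 8.33, with the next array at 8.91.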

How the results depend on the processing

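The number of interferon-stimulated genes called between BRSST+sgEzh2 and BRSST+sgLuc was 0 with any 1 array left out, 1 with trended and robust variance or with array quality weights (Ifitm3 each time), and 3 within the high Y-linked class (Ddx58, Gbp3 and Oasl2, 2 arrays against 2), a setting chosen after seeing the data. In the low class the difference of Gbp3 was -0.10 in place of 0.42. Between BRSST+sgEzh2 and sgLuc the count was 8 of 15 with the filter at the 75th percentile, which tests fewer genes, and 6 to 14 with 1 array left out; the cause of the latter range was not tested. Between BRSST+sgLuc and sgLuc all counts stayed within 1.5 times 15. With the replicate number as a block 0 genes were called between the BRSST groups, 17 between BRSST+sgLuc and sgLuc, and 13 for BRSST+sgEzh2 set against sgLuc. Deviations of same-numbered arrays correlated by -0.18 to 0.19 over 12 pairs, and those of other pairs between groups by -0.32 to 0.36. They show no sign that the numbers pair the samples, but cannot settle it. Without BRSST+sgLuc replicates 2 and 5, left out after seeing the data, the counts were 0, 18 and 15 in the same order. For the counts of this section too, the share of all genes called is not given. Signals below the array median limit what can be measured; the 8 untested genes and Ifit1bl2, Oasl2, Ifi27l2a and Rtp4 lay below it on most arrays.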
